A study of Mus musculus with 16 samples.

Results

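Chemokines of the CC family are small secreted proteins that draw leukocytes out of the blood and through tissue by binding receptors on the leukocyte surface. Ccl2 (monocyte chemoattractant protein 1) and Ccl7 (monocyte chemoattractant protein 3) bind the receptor Ccr2, which draws inflammatory monocytes, the precursors of many macrophages of the inflamed gut. Ccl4 and Ccl5 draw T cells, macrophages and other leukocytes, and Ccl24 (eotaxin-2) binds Ccr3, the main chemokine receptor of eosinophils. These 5 genes were chosen by name and were read by 7 assays of a mouse inflammation panel that held 648 assays of 584 genes. Ccl5 and Ccl7 had 2 assays each, and the other members had 1.

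The panel was run by real-time quantitative PCR on RNA of the colonic mucosa of mice, in 16 samples, 4 in each of 4 groups. The healthy group received buffer (PBS) by rectum and by mouth, and the DNBS group received dinitrobenzene sulfonic acid by rectum, a hapten that provokes colitis, with PBS by mouth. The DNBS_CEC and DNBS_Nissle groups received DNBS by rectum with CEC or Nissle by mouth. Nissle is a probiotic strain of Escherichia coli, and CEC is not spelled out in the labels. These give no strain, age or time after DNBS, and no group received CEC or Nissle without DNBS. They speak of RNA pooled from mice while each sample has a number of its own, so it is unknown if samples are single mice or pools, and the p-values measure only the spread between these samples. The tissue is a mixture of cells, in which fewer cells of a type and less RNA per cell cannot be told apart.

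Each level is a cycle threshold (Ct) difference, the mean Ct of 13 reference genes less that of the gene, a log2 scale on which 1 unit more is about a doubling of RNA. A Ct above 28 counted as not detected and was set to 28. Samples had 528 to 564 detected assays each, and the mean Ct of the reference genes lay between 18.69 and 20.12. In all, 194 deposited values (1.87% of 10368) were exactly the average of the remaining 3 samples of that group, and are called filled values here. There were 57 in healthy sample 3 and 61 in DNBS_Nissle sample 1, and no more than 12 in any other sample. Among the 5 chemokines, 1 value was filled, that of Ccl2 in DNBS_Nissle sample 1. Filled values of reference genes also entered the levels of the other members. With all filled values missing, the Ccl7 difference between DNBS_Nissle and healthy was 2.84 in place of 2.98. Between DNBS_Nissle and DNBS it was 1.09 in place of 1.10. Values with 4 or fewer decimals may have lost digits before deposit, and 4 member values were of this kind, all of Ccl7. Ccl4 was detected in 15 samples, with healthy sample 3 above the limit, and the other members in all 16. All 5 were therefore tested in every comparison. Values below follow the sample numbers of each group: 3, 4, 5 and 6 for healthy, 2, 3, 4 and 5 for DNBS, 1, 2, 6 and 8 for DNBS_CEC, and 1, 4, 5 and 7 for DNBS_Nissle.

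No member differed between any 2 groups at an adjusted p under 0.05 (limma, Benjamini-Hochberg over all genes tested). Ccl2, Ccl7 and Ccl4 had higher means in every DNBS group than in healthy mucosa. Each lay above the highest healthy sample in 9 of the 12 samples given DNBS. Ccl5 did so in 6 of 12. Ccl24 did so in 3 of 12, all of them DNBS_Nissle samples, and lay below the lowest healthy sample in 6 of 12, 3 of DNBS and 3 of DNBS_CEC. DNBS sample 5 and DNBS_CEC sample 8 lay above the healthy range for none of Ccl2, Ccl7 and Ccl4, so these counts are not independent. How many other genes of the panel reach such counts was not determined, so it is unknown if 9 of 12 is unusual here.

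Ccl2 levels in healthy mucosa were −6.36, −5.42, −6.01 and −5.30. In DNBS samples the Ccl2 level was −3.75, −2.71, −3.99 and −5.49. DNBS samples 2, 3 and 4 lay above every healthy sample, while sample 5 lay within the healthy range. The DNBS_CEC samples had Ccl2 levels of −2.86, −4.23, −4.92 and −6.68, the widest range of the 4 groups, with sample 8 below every healthy sample. In DNBS_Nissle samples the deposited Ccl2 values gave −4.39, −3.61, −3.52 and −5.63. The first of these is the filled value, so only 3 measured Ccl2 levels remained in this group, and sample 7 among them lay within the healthy range. Group means were −5.77 ± 0.50 in healthy, −3.98 ± 1.14 in DNBS, −4.67 ± 1.59 in DNBS_CEC and −4.29 ± 0.98 in DNBS_Nissle (SD, n = 4). From high to low the order was DNBS, DNBS_Nissle, DNBS_CEC and healthy, and each group overlapped with its neighbour.

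Ccl7 lies next to Ccl2 on mouse chromosome 11 in the RefSeq annotation, with Ccl11 on its other side. Its levels in healthy mucosa were −7.05, −5.31, −5.77 and −5.16. DNBS samples had Ccl7 levels of −3.99, −2.60, −3.72 and −5.46, in the same order from sample to sample as for Ccl2 apart from samples 2 and 4. In DNBS_CEC samples Ccl7 stood at −2.79, −3.14, −5.19 and −6.98. The first and second of these lay above the healthy range and the others within it. DNBS_Nissle samples had Ccl7 levels of −0.29, −3.13, −3.62 and −4.34, all above the highest healthy sample. Sample 1 of this group had the highest Ccl7 level of the 16 samples, and both Ccl7 assays read it, at Ct 19.44 and 19.07, the latter with 4 decimals. The mean Ccl7 level was −5.82 ± 0.86 in healthy, −3.94 ± 1.18 in DNBS, −4.53 ± 1.95 in DNBS_CEC and −2.84 ± 1.78 in DNBS_Nissle (SD, n = 4), with overlap between all neighbours in this order of levels.

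**Figure D1:**
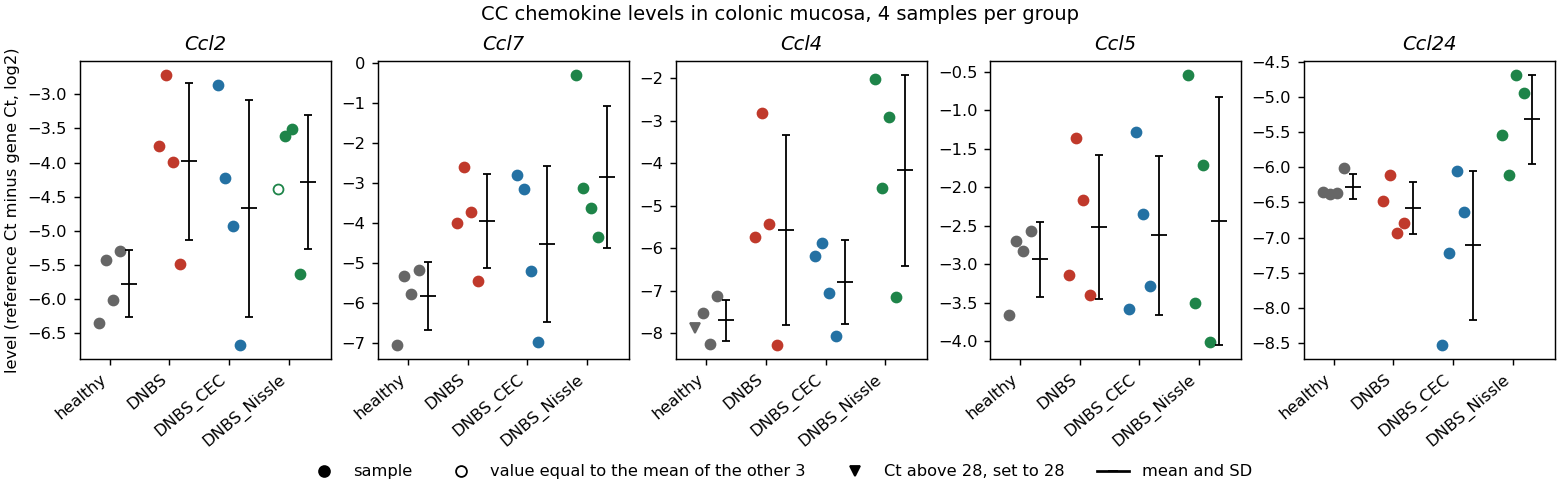
Levels of the 5 chemokines (reference Ct minus gene Ct, log2 scale) in each of the 16 samples by group, with the group mean and SD (n = 4) beside them; the open point is the filled Ccl2 value and the triangle a Ct above 28. Ccl2, Ccl7 and Ccl4 each lie above the highest healthy sample in 9 of 12 samples given DNBS, and Ccl24 in 3 of 12. The share of all genes that reach such counts was not determined.

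Ccl4 (macrophage inflammatory protein 1 beta) attracts T cells and monocytes and was the member whose Ct reached the detection limit. Healthy samples had Ccl4 levels of −7.88, −7.53, −8.26 and −7.13, the first being set by the detection limit. In DNBS samples Ccl4 stood at −5.73, −2.82, −5.43 and −8.29. DNBS sample 3 stood above the others of its group, and sample 5 lay just below the lowest measured healthy level, −8.26. Healthy sample 3 had been read at Ct 28.47, which without the limit would give a level of −8.35, below DNBS sample 5. The Ccl4 level of DNBS_CEC samples was −6.19, −5.88, −7.06 and −8.07. DNBS_Nissle samples had Ccl4 levels of −2.02, −4.59, −2.91 and −7.14. Only sample 7 of this group reached into the healthy range. Mean Ccl4 levels were −7.70 ± 0.48 in healthy, −5.56 ± 2.24 in DNBS, −6.80 ± 0.98 in DNBS_CEC and −4.16 ± 2.25 in DNBS_Nissle (SD, n = 4), and all neighbours in the order of levels overlapped.

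Ccl5 (RANTES), which T cells, natural killer cells and platelets make in quantity, showed little separation of the groups. Its levels were −3.65, −2.70, −2.82 and −2.57 in healthy samples. DNBS samples had Ccl5 levels of −3.13, −1.35, −2.17 and −3.39. In DNBS_CEC samples Ccl5 stood at −3.57, −1.29, −2.35 and −3.28. DNBS and DNBS_CEC each had 2 samples above the healthy range and 2 within it. DNBS_Nissle samples spread furthest, with Ccl5 levels of −0.53, −3.50, −1.71 and −4.01, from above to below the healthy range. The group means of Ccl5 spanned 0.50 units, at −2.93 ± 0.49, −2.51 ± 0.94, −2.62 ± 1.03 and −2.44 ± 1.61 in healthy, DNBS, DNBS_CEC and DNBS_Nissle (SD, n = 4).

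Ccl24, the only member on mouse chromosome 5, had the smallest healthy spread, with levels of −6.35, −6.38, −6.36 and −6.01. In DNBS samples the Ccl24 level was −6.48, −6.10, −6.94 and −6.80. DNBS_CEC samples had Ccl24 levels of −8.53, −7.23, −6.05 and −6.64. In both of these groups 3 samples lay below the healthy range, and sample 1 of DNBS_CEC had the lowest Ccl24 level of all. DNBS_Nissle samples had Ccl24 levels of −5.54, −6.10, −4.68 and −4.94. All but sample 4 of this group lay above every sample of the other groups. Mean Ccl24 levels were −6.28 ± 0.18 in healthy, −6.58 ± 0.37 in DNBS, −7.11 ± 1.06 in DNBS_CEC and −5.32 ± 0.64 in DNBS_Nissle (SD, n = 4). The order of Ccl24 therefore ran DNBS_Nissle, healthy, DNBS and DNBS_CEC, and here too neighbours overlapped.

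The effect of the hapten without an oral treatment was read by setting DNBS against healthy mucosa. Ccl2 was higher in DNBS by 1.79 ± 0.72 (log2 difference ± SE, n = 4 per group, 3.46-fold), with a 95% interval from 0.25 to 3.32. Its adjusted p was 0.343 (limma), and without DNBS sample 3 the difference was 1.36. Ccl7 was higher by 1.88 ± 0.95 (3.69-fold) at an adjusted p of 0.553. Ccl4 was higher by 2.13 ± 1.06 (4.39-fold) at an adjusted p of 0.531, and the difference was 1.22 when DNBS sample 3 was left out and 3.04 when sample 5 was. The Ccl5 difference was 0.42 ± 0.71 and that of Ccl24 −0.30 ± 0.45, both at an adjusted p of 0.973. Without DNBS sample 3 the Ccl5 difference was 0.037 and without sample 5 it was 0.72, while for Ccl24 the values ran from −0.46 without DNBS sample 3 to −0.18 without sample 4. The 0 of 5 members past the threshold stood beside 1 of 473 genes tested, or 0.211%, and that 1 gene was Nos2, inducible nitric oxide synthase, which passed in 21 of 35 alternatives. At an unadjusted p under 0.05 there were 46 such genes, 1 of them a member. No member separated the groups without overlap, against 40 of 473 genes, or 8.46%. The median difference of the 5 members was 1.79, and that of all genes tested 0.12. The comparisons with healthy mucosa share the healthy samples, and those with DNBS share the DNBS samples, so their values are set side by side only.

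Averaged over the 3 DNBS groups, the differences from healthy were 1.46 ± 0.59 for Ccl2, 2.05 ± 0.78 for Ccl7 and 2.19 ± 0.86 for Ccl4 (log2 ± SE). Their adjusted p-values were 0.269, 0.250 and 0.259 (limma), and the unadjusted values 0.0250, 0.0177 and 0.0217. Ccl5 differed by 0.41 ± 0.58, and by 0.17 without healthy sample 3, and Ccl24 differed by −0.06 ± 0.37. Of all genes tested in this contrast, 1.92% were past the threshold, 9 of 469, and none was a member. That count fell to 0 without healthy sample 3 and without healthy sample 4.

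The comparison of DNBS_Nissle with healthy mucosa combined the hapten and the oral strain. Ccl7 was higher in DNBS_Nissle by 2.98 ± 0.95 (log2 ± SE, n = 4 per group, 7.88-fold), with a 95% interval from 0.96 to 4.996 and an adjusted p of 0.132 (limma). It was the only member whose levels did not overlap between these groups, with an exact two-sided permutation p of 0.0286, the smallest that 4 against 4 samples can give. Without overlap there were 63 of 473 genes in this comparison, or 13.3%. Without DNBS_Nissle sample 1 the Ccl7 difference was 2.13, and without both this sample and healthy sample 3, the 2 with most filled values, it was 1.72 (adjusted p = 0.746). Ccl4 was higher by 3.54 ± 1.05 (11.6-fold) at an adjusted p of 0.107. Without sample 7 of DNBS_Nissle alone among the alternatives, Ccl4 passed the threshold, higher by 4.53 at an adjusted p of 0.0249, while without sample 1 it was higher by 2.82. Ccl2 was higher by 1.49 ± 0.72 at an adjusted p of 0.327. It was higher by 1.40 with all filled values missing, those of reference genes among them. Without DNBS_Nissle sample 1, which holds the filled Ccl2 value, it was higher by 1.52. Ccl24 was higher by 0.96 ± 0.45 at an adjusted p of 0.314, and Ccl5 by 0.50 ± 0.70 at 0.816. Past the threshold were 2.11% of the genes tested, 10 of 473 (0 without healthy sample 3), and 0 of 5 members; 75 genes and 2 members had an unadjusted p under 0.05.

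In DNBS_CEC mucosa the mean levels of Ccl2, Ccl7 and Ccl4 lay between those of healthy and DNBS mucosa. Ccl2 was higher than in healthy by 1.10 ± 0.72, Ccl7 by 1.30 ± 0.95 and Ccl4 by 0.90 ± 1.06 (log2 ± SE, n = 4 per group), with adjusted p-values from 0.903 to 0.937 (limma). The Ccl2 difference ran from 0.50 without DNBS_CEC sample 1 to 1.77 without sample 8, and that of Ccl7 from 0.72 to 2.12 without the same samples. Ccl24 differed by −0.84 ± 0.45, and by −0.36 without sample 1. Of all genes tested 0% were past the threshold, 0 of 474, with 26 at an unadjusted p under 0.05 and no member among them. Without overlap were 3.16% of the genes, 15 of 474, and no member.

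**Figure D2:**
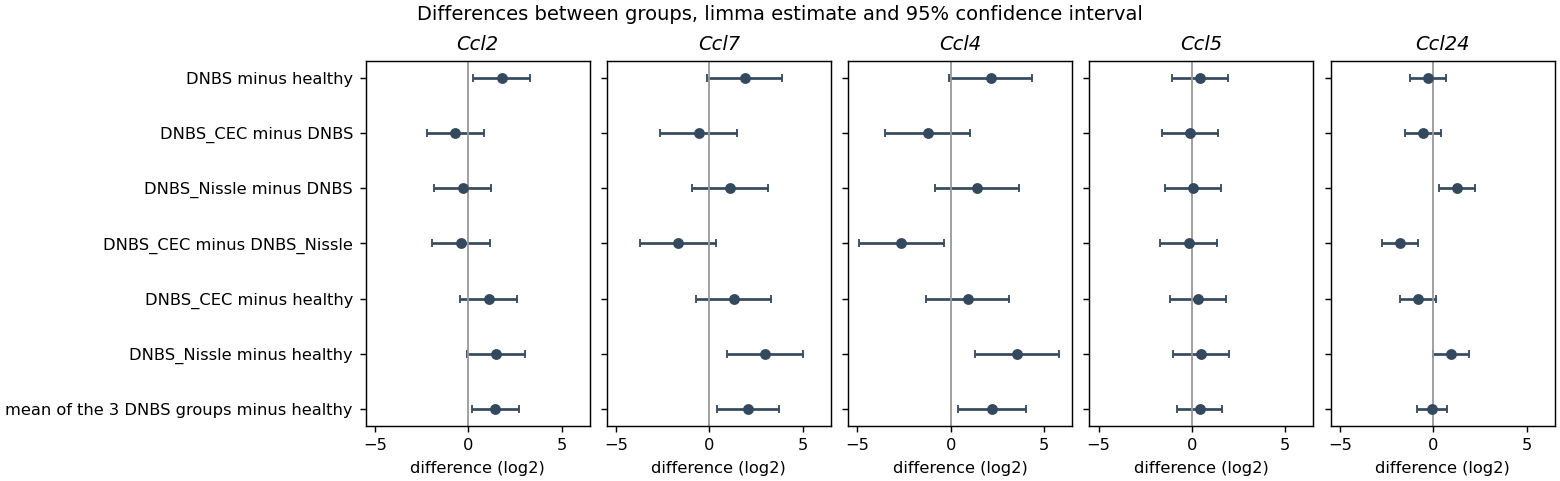
Differences between groups (log2, points) with 95% confidence intervals from limma for the 5 chemokines in 7 comparisons; the grey line marks no difference. Intervals clear of 0 before adjustment are those of Ccl2 in DNBS against healthy, Ccl7 and Ccl4 in DNBS_Nissle against healthy, Ccl2, Ccl7 and Ccl4 in the mean of the DNBS groups, Ccl4 and Ccl24 between DNBS_CEC and DNBS_Nissle, and Ccl24 in DNBS_Nissle against DNBS.

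The effect of each oral treatment was read against DNBS alone. With CEC the differences were −0.69 ± 0.73 for Ccl2, −0.59 ± 0.96 for Ccl7, −1.24 ± 1.06 for Ccl4, −0.11 ± 0.71 for Ccl5 and −0.53 ± 0.46 for Ccl24 (log2 ± SE, n = 4 per group). All 5 mean levels were thus lower than with DNBS alone, except that other scalings turned the sign of 2, Ccl5 to 0.020 with the global mean and Ccl24 to 0.043 with quantile normalization. The median difference of all 490 genes tested was −0.09, so more genes were lower than higher, and the Ccl5 difference was close to that median. Every interval held 0, and the adjusted p-values lay between 0.994 and 0.999 (limma). For Ccl2 the interval ran from −2.23 to 0.86, so neither a lower level nor its absence was shown. Single samples carried much of these differences. Without DNBS_CEC sample 8 the Ccl2 difference was −0.021 and that of Ccl7 turned to 0.23, and without DNBS_CEC sample 1 they were −1.29 and −1.17. For Ccl4 the difference was −0.32 without DNBS sample 3 and −2.14 without DNBS sample 5. Ccl24 differed by −0.060 without DNBS_CEC sample 1, and the sign of the Ccl5 difference turned to 0.28 without DNBS sample 3. Across all genes 0% were past the threshold, 0 of 490, and 8 had an unadjusted p under 0.05, none of them a member. Without overlap were 0.612% of the genes, 3 of 490, and no member.

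With Nissle, Ccl24 was higher than in DNBS alone by 1.26 ± 0.46 (log2 ± SE, n = 4 per group, 2.40-fold), with a 95% interval from 0.29 to 2.23. It ranked 2 of 490 genes by p, at an unadjusted p of 0.0140 and an adjusted p of 0.977 (limma), and the exact two-sided permutation p was 0.0571. The 2 groups overlapped at −6.10, through DNBS sample 3 and DNBS_Nissle sample 4. Ccl7 differed by 1.10 ± 0.96 and Ccl4 by 1.40 ± 1.06, and their differences were 0.24 and 0.69 without DNBS_Nissle sample 1. The Ccl4 difference was 0.49 without DNBS sample 5 and 2.39 without DNBS_Nissle sample 7. Ccl2 differed by −0.30 ± 0.73 and Ccl5 by 0.07 ± 0.71, and the sign of both turned when single samples were left out. Here too 0% of genes were past the threshold, 0 of 490, with 7 at an unadjusted p under 0.05, and 1.02% were without overlap, 5 of 490, none of them a member.

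Between the oral treatments, Ccl24 had a lower mean in DNBS_CEC than in DNBS_Nissle, with a difference of −1.80 ± 0.46 (log2 ± SE, n = 4 per group, 3.47-fold), with a 95% interval from −2.76 to −0.83. This was the lowest p of the 487 genes tested, 0.00122, and its adjusted p was 0.495 (limma). The groups overlapped through 1 sample of each, DNBS_CEC sample 6 at −6.05 and DNBS_Nissle sample 4 at −6.10, and the exact two-sided permutation p was 0.0571. Without DNBS_CEC sample 1, the lowest, the Ccl24 difference was −1.32. Over the alternatives its adjusted p lay between 0.103 and 0.9997, and its sign held in all of them. The Ccl4 difference was −2.64 ± 1.06 (6.23-fold, unadjusted p 0.0246, adjusted p 0.971). The differences of Ccl7, Ccl2 and Ccl5 were −1.68 ± 0.96, −0.39 ± 0.73 and −0.18 ± 0.71, and that of Ccl7 was −0.83 without DNBS_Nissle sample 1. Past the threshold were 0% of genes, 0 of 487, with 22 at an unadjusted p under 0.05, 2 of them members. Without overlap were 1.85%, 9 of 487, and no member.

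A test of any difference among the 4 groups gave Ccl24 the lowest p of the members, 0.00870, with an adjusted p of 0.291 (limma, moderated F). Ccl4 followed at 0.0220 and Ccl7 at 0.0434, with adjusted p-values of 0.454 and 0.599. Ccl2 and Ccl5 stood at adjusted p-values of 0.735 and 0.987. In that test 0% of 469 genes were past the threshold and 38 had an unadjusted p under 0.05.

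Within a sample, the difference of 2 Ct values does not depend on the reference genes, and gives the ratio of 2 chemokines up to a constant set by the assays. For Ccl7 over Ccl2 this log2 ratio had a median of 0.11 and ran from −0.70 to 1.29 over the 15 samples with a measured Ccl2. The ratio thus moved over 1.98 units, while the Ccl7 level itself moved over 4.45 units in the same samples. In DNBS_Nissle sample 1, where Ccl2 is the filled value, the ratio was 4.10. The mean ratio in DNBS_Nissle was 1.44 ± 1.86 with that sample and 0.55 ± 0.70 (SD, n = 3) without it, against −0.05 ± 0.43 in healthy, 0.04 ± 0.21 in DNBS and 0.14 ± 0.65 in DNBS_CEC (SD, n = 4). The Ccl2 mean of DNBS_Nissle therefore holds no measurement from the sample in which Ccl7, Ccl4 and Ccl5 were highest.

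**Figure D3:**
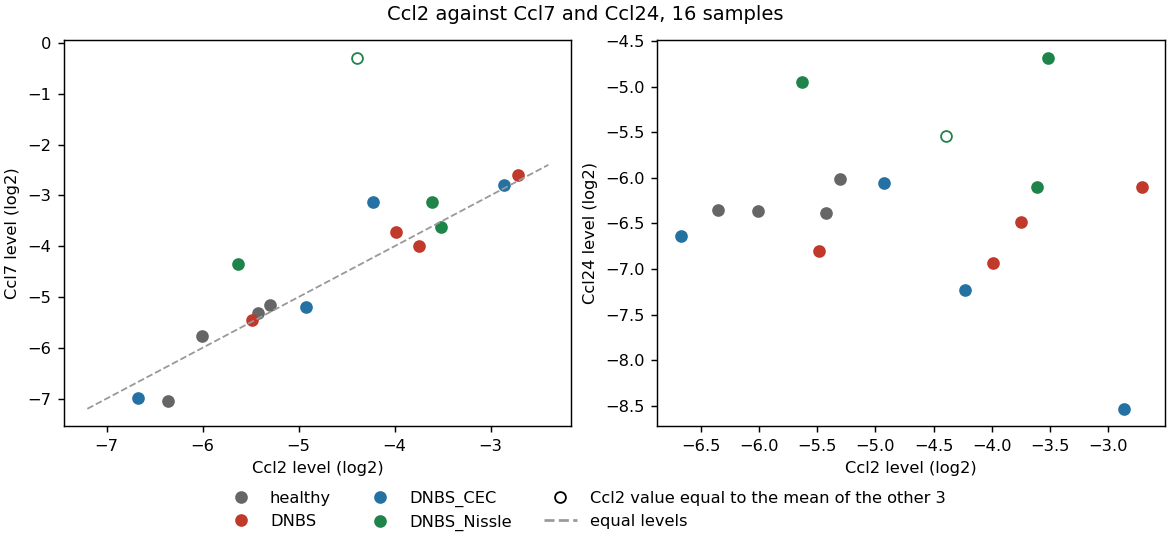
Level of Ccl7 (left) and of Ccl24 (right) against the level of Ccl2 (log2 scale) in the 16 samples, coloured by group; the dashed line marks equal levels and the open point the sample with a filled Ccl2 value. Ccl7 follows Ccl2 in 15 samples, with a ratio from −0.70 to 1.29, and the open point stands off at 4.10, while Ccl24 shows no such line.

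Over all 16 samples Ccl2 and Ccl7 levels had a Pearson r of 0.78 (Spearman rho 0.86), and over the 15 samples with a measured Ccl2 the r was 0.94. Ccl4 had an r of 0.86 with Ccl7 and of 0.76 with Ccl2, the latter 0.85 over the 15 samples with a measured Ccl2. Ccl5 had an r of 0.70 with Ccl4 and 0.61 with Ccl7. The 2 samples farthest from the median were then left out (by Ccl2 for its pairs, by Ccl7 or Ccl4 for the others). The r was then 0.71 for Ccl2 and Ccl7, 0.80 for Ccl7 and Ccl4 and 0.68 for Ccl2 and Ccl4. Pairs with Ccl2 still held its filled value. For Ccl5 the r fell to 0.43 with Ccl4 and 0.33 with Ccl7. Leaving out extreme samples narrows the range, which can itself lower r. For deviations from the group means over all 16 samples, the r of Ccl5 was 0.80 with Ccl4 and 0.65 with Ccl7. For Ccl24 the r with the other members lay between −0.16 and 0.33, and between −0.41 and 0.25 for deviations from the group means. These correlations are descriptions: the levels of a sample share 1 reference value, and the samples share groups.

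The ratio of Ccl24 to Ccl2 was −0.50 ± 0.42 in healthy mucosa and −2.60 ± 0.90 in DNBS (log2, SD, n = 4). In healthy samples it ran from −0.95 to 0.01, and in DNBS samples from −3.39 to −1.31, with no overlap. DNBS_CEC samples spread from −5.67 in sample 1 to 0.04 in sample 8, with a mean of −2.44 ± 2.49. In DNBS_Nissle the ratio was −0.99 ± 1.60 over the 3 samples with a measured Ccl2 (SD, n = 3), from −2.498 to 0.69.

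For Ccl4 over Ccl5 the ratio was −4.76 ± 0.51 in healthy, −3.05 ± 1.43 in DNBS, −4.18 ± 1.04 in DNBS_CEC and −1.72 ± 0.95 in DNBS_Nissle (log2, SD, n = 4). DNBS_Nissle samples ran from −3.13 to −1.08 and healthy samples from −5.43 to −4.23, with no overlap. The healthy value of −4.23 is an upper bound, from sample 3 with its Ccl4 Ct set to 28; with the Ct as read it would be −4.70, and the healthy range −5.43 to −4.56. In DNBS_CEC, samples 2, 6 and 8 lay within the healthy range on either reading, between −4.80 and −4.60, and sample 1 stood at −2.62. No test was made on these ratios, and how many other pairs of genes on the panel would separate the groups was not counted.

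**Figure D4:**
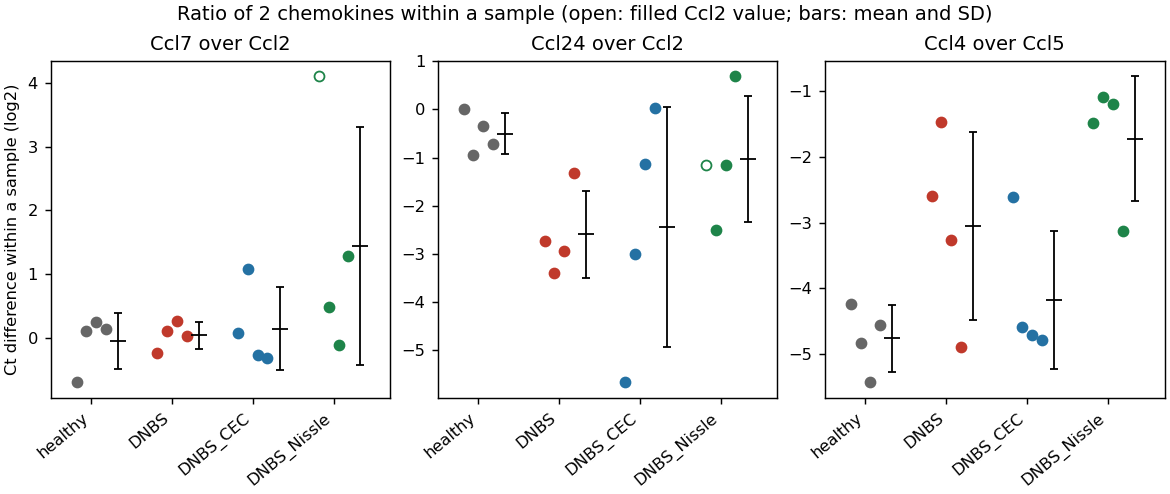
Log2 ratios within a sample (Ct of the second gene minus Ct of the first, y axis) for 3 pairs of chemokines by group, with the mean and SD (n = 4); open points use the filled Ccl2 value, and Ccl4 in healthy sample 3 is set at Ct 28. Ccl4 over Ccl5 is higher in every DNBS_Nissle sample (−3.13 to −1.08) than in every healthy sample (−5.43 to −4.23).

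The paired assays of a gene agreed closely. For Ccl7 the Ct values of the 2 assays had an r of 0.99 over 16 samples and differed by 0.41 ± 0.29 cycles (mean ± SD), with the same assay later in 15 samples. For Ccl5 the r was 0.95 and the difference 0.64 ± 0.34 cycles, again in the same direction in 15 samples. With either Ccl7 or Ccl5 assay alone, no comparison of that gene passed the threshold.

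The other genes of the chemokine system were taken from lists. Of 16 other CC chemokines, 12 were on the panel and 10 were tested in each comparison. None of the 10 passed the threshold in any of the 7 comparisons. Their median difference was −0.22 in DNBS against healthy and −0.40 in the mean of the DNBS groups, against 0.12 and 0.01 over all genes tested. Ccl3, the neighbour of Ccl4 on chromosome 11 and a ligand of Ccr1, had the largest difference from healthy among these 10. It was higher by 3.06 ± 1.497 in DNBS (adjusted p = 0.524) and by 3.84 ± 1.49 in DNBS_Nissle (adjusted p = 0.219, limma). Its levels ran from −8.66 to −0.83 in DNBS, with sample 5 lowest and sample 3 highest, as for Ccl4, and without DNBS sample 3 the difference between DNBS and healthy was 1.84. Ccl11 (eotaxin), which like Ccl24 binds Ccr3, was higher in DNBS_Nissle than in healthy by 1.07 ± 0.59 (adjusted p = 0.366), and its highest level, 0.50, was in DNBS_Nissle sample 1, as for Ccl7. Without that sample the Ccl11 difference was 0.42.

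Ccl25 and Ccl28, which epithelial cells make and which draw lymphocytes to the gut, differed from healthy by −0.99 ± 0.45 and −0.59 ± 0.31 in the mean of the DNBS groups (log2 ± SE, adjusted p = 0.339 and 0.400, limma). Ccl8, another monocyte chemoattractant, differed by −0.61 ± 0.79 (−0.32 without DNBS_CEC sample 1) and Ccl6 by −0.55 ± 0.33 in the same contrast. Ccl20, Ccl22, Ccl17 and Ccl19, which draw dendritic cells and lymphocytes, had differences between −0.49 and −0.13. Ccl1 was detected in 1 sample and Ccl26, the neighbour of Ccl24, in 0 of 16.

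**Figure D5:**
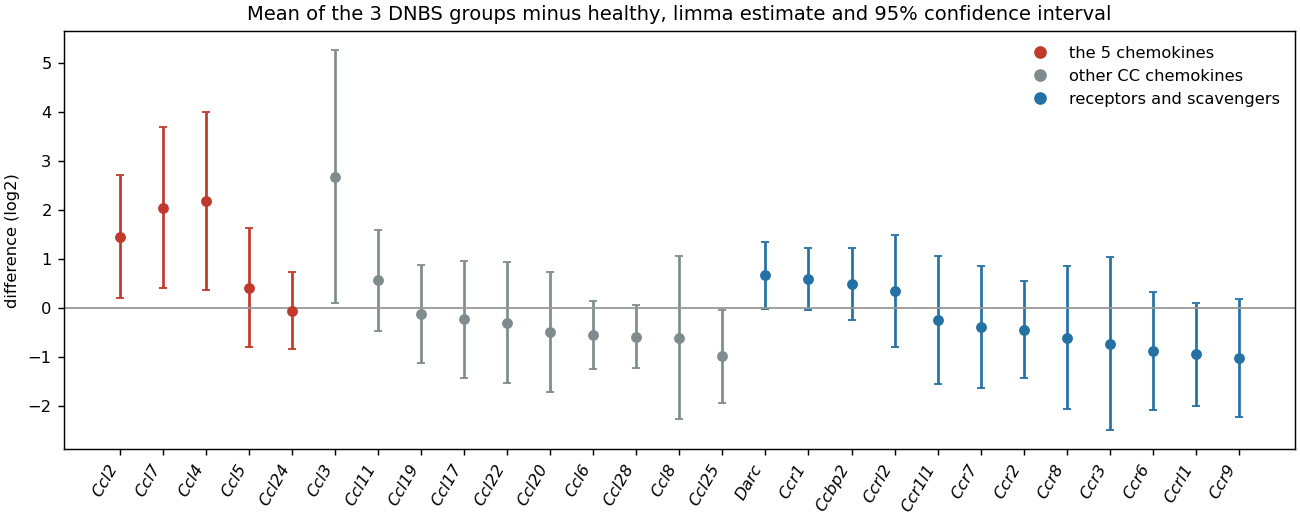
Difference between the mean of the 3 DNBS groups and healthy (log2, points) with 95% confidence intervals from limma for the 5 chemokines, 10 other CC chemokines and 12 receptors and scavengers. Ccl4, Ccl7, Ccl2 and Ccl3 lie above 1, and no other gene shown does.

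Of 15 receptors and scavengers of CC chemokines, 14 were on the panel, and none passed the threshold in any comparison, with 13 or 14 tested. Ccr2, the receptor of Ccl2 and Ccl7, had mean levels of −2.39 ± 0.70 in healthy, −2.59 ± 0.27 in DNBS, −3.24 ± 1.36 in DNBS_CEC and −2.68 ± 0.78 in DNBS_Nissle (SD, n = 4). Ccr1, a receptor of Ccl5 and Ccl7, stood at −3.73 ± 0.29 in healthy and −2.77 ± 0.48 in DNBS, a difference of 0.97 ± 0.37 (adjusted p = 0.343, limma). In DNBS_CEC the Ccr1 level was −3.71 ± 0.37, a difference from DNBS of −0.95 ± 0.37 (adjusted p = 0.994), and in DNBS_Nissle it was −2.93 ± 0.70. Ccr3 ran from −9.04 to −3.12 within DNBS_Nissle. Its 2 assays had an r of −0.01 over the 16 samples, so the level of this receptor beside Ccl24 and Ccl11 is uncertain; the level given is from the assay detected in 15 samples.

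Cytokines and signalling genes known to induce the monocyte chemokines, 13 on the panel, held 1 gene past the threshold, of 10 tested against healthy. The share over all genes was 2.11% in DNBS_Nissle against healthy and 1.92% in the mean of the DNBS groups. The gene was Il1b, which was higher in DNBS_Nissle than in healthy by 4.76 ± 1.03 (log2 ± SE, adjusted p = 0.0209, limma) and in the mean of the DNBS groups by 3.45 ± 0.84 (adjusted p = 0.0432). The first call held in 28 of 35 alternatives and the second in 18 of 34, and both were lost without healthy sample 3, 4 or 5 and without DNBS_Nissle sample 1 or 5. Tnf was higher in DNBS by 1.74 ± 0.78 (adjusted p = 0.437). Among 12 listed genes linked to induction of the eosinophil chemokines, 6 or 7 were tested and none passed. Il4ra, a receptor chain for interleukins 4 and 13, differed by 2.44 ± 0.80 in the mean of the DNBS groups (adjusted p = 0.151), and by 0.97 without healthy sample 3, and Il33 differed by 0.78 ± 0.32 (adjusted p = 0.269).

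Markers of several cell types were read beside the chemokines, and their part in the differences was not tested. Of 7 neutrophil markers on the panel, 4 of the 5 tested were higher in the mean of the DNBS groups than in healthy at an adjusted p under 0.05 (limma): S100a8, S100a9, Ltf and Il8rb. The share over all genes was 1.92%, and the median difference was 3.47 for the 5 and 0.01 for all genes tested. The remaining tested marker, Il8ra, went the other way, by −0.17 ± 0.67 (log2 ± SE, adjusted p = 0.966, limma). S100a8 and S100a9 each passed in 29 of 34 alternatives, Il8rb in 25 of 33 and Ltf in 24 of 34. All 4 calls were lost without healthy sample 3 or 4 and without the pair of samples with most filled values. A summed level is the log2 of the sum of 2 to the power of each marker's level, so the genes with most RNA set it. For neutrophils these were S100a8 and S100a9, with median levels of 0.04 and −0.35 over the 16 samples, and Ltf came next at −3.82. The summed level of the 7 neutrophil markers lay between −4.48 and −2.94 in healthy, −0.72 and 5.65 in DNBS, −3.35 and 2.87 in DNBS_CEC, and 2.16 and 3.597 in DNBS_Nissle. The highest sum in DNBS was in sample 3 and the lowest in DNBS_CEC in sample 8, the samples with the highest and the lowest Ccl2 and Ccl7 of their groups. In DNBS_Nissle, where the sums lay between 2.16 and 3.597, Ccl7 ran from −4.34 to −0.29. Other extremes of the sums are not given here. Ela2, an older symbol of neutrophil elastase, was detected in 0 samples.

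All 7 genes on the panel that were listed as monocyte and macrophage markers, Csf1 among them, were detected in every sample, and 0 passed the threshold. Their summed level lay between −0.27 and 0.17 in healthy, −0.32 and 1.10 in DNBS, −0.57 and 0.50 in DNBS_CEC, and −0.65 and 0.82 in DNBS_Nissle. The highest median levels among them, which weigh most in this sum, were those of Mrc1 and Cd14, −1.375 and −1.67. Of 4 eosinophil markers on the panel, 3 were tested (Prg2, Ccr3 and Alox15) and none of these passed. Prg2, a granule protein of eosinophils, was detected in all 16 samples and Il5ra in 6, none of them healthy. The median Il5ra level, −8.34, lay at the detection limit. Every healthy sample also had fewer detected assays over the whole panel (528 to 539) than every sample given DNBS (548 to 564). The summed level of the 4 lay between −4.61 and −3.34 in healthy, −4.18 and −3.47 in DNBS, −4.45 and −4.04 in DNBS_CEC, and −5.47 and −2.35 in DNBS_Nissle, where Ccl24 was highest. Without Ccr3, whose assays disagreed, the sum lay between −5.03 and −4.27 in healthy, −4.87 and −4.10 in DNBS, −5.17 and −4.17 in DNBS_CEC, and −5.59 and −3.62 in DNBS_Nissle, so all groups overlapped. The summed level of 5 adipocyte markers lay between 0.48 and 2.99 in healthy, 1.21 and 2.43 in DNBS, −0.68 and 1.88 in DNBS_CEC, and −0.05 and 0.79 in DNBS_Nissle. Both epithelial markers on the panel, Krt8 and Muc1, were detected in all 16 samples. So were the 3 genes listed for T and natural killer cells (Cd4, Cd28 and Ncam1) and the 1 listed for B cells (Cd180), which may also be made by other cells. None of the genes listed for these 3 kinds of cell was checked for its source in this tissue. No epithelial, T and natural killer or B cell gene passed the threshold, and the 10 endothelial and stromal genes listed were not on the panel.

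The genes most like each member were taken as the 3 with the highest r of the level over the 16 samples, among 424 other genes detected in all of them. For Ccl2 these were Fcer1g (0.94), Tlr13 (0.94) and Lilrb3 (0.91), and the same 3 genes led over the 15 samples with a measured Ccl2. Ccl7 was most like Cxcl1 (0.92), Tnfrsf1b (0.89) and Lif (0.87). The genes nearest to Ccl4 were Mefv (0.92), Csf2rb (0.91) and Il1b (0.90). For Ccl5 the values were lower, with Ccrl2 at 0.78, Ebi3 at 0.75 and Mefv at 0.75. For Ccl24 the values were the lowest of the 5, with Tacr1 at 0.56, Il1rl1 at 0.53 and Cntnap1 at 0.47. Without the 2 samples farthest from the median of Ccl24, the r was 0.62 for Tacr1, 0.21 for Il1rl1 and 0.16 for Cntnap1.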

How the data were processed

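The authors deposited raw cycle thresholds (Ct, a unit recorded here as other), with no normalization: the PCR cycle at which an assay's fluorescence crosses its threshold, with 40 for no amplification. RNA was isolated with a mirVana kit and read on TaqMan OpenArray cards, per the labels' protocols; thresholding and quality filters are not given in the sources used here. How many molecules a Ct stands for is not known, and counting intervals are therefore not given. Filled values (within 2e-06 of the mean of the other 3 samples of the group) and values with 4 or fewer decimals were kept, and left out in alternatives.

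Levels were the mean Ct of 13 reference genes (19 assays) minus the Ct of the gene, with Ct above 28 set to 28. Of several assays for 1 gene, the ones with most detected samples were averaged. A gene was tested where at least 3 of 4 samples of both groups were detected (of every group for the mean of the DNBS groups and the test over 4 groups). The fit used limma 3.58.1 (lmFit, eBayes) in R 4.3.3, as 1 model over 16 samples, adjusted by Benjamini-Hochberg over all genes tested, threshold 0.05, and tested on simulated data. Single members were checked with exact permutation tests.

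The members and gene lists were chosen with earlier results of these data known. Named genes were the members, receptors Ccr1, Ccr2 and Ccr3, the other CC chemokines, list genes past the threshold, and the 3 genes most like each member; Tnf, Il4ra, Il33 and the marker genes named with values or detection were chosen after their values were seen. Alternatives were other reference genes and scalings, detection limits, filters, assays and models, each sample left out, and 3 added after the data were seen. Some genes are not reported here by name.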

Additional observations from a re-analysis of the deposited data

Results flagged for a closer look

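Ccl24 in healthy sample 6, at −6.01, stood apart from the other healthy samples, which lay between −6.38 and −6.35. Its gap to the nearest of them was 0.92 of the group's range, above Dixon's 95% critical value for 4 samples. This was 1 of 20 groups of member levels examined, and chance flags about 1 in 20. Without this sample the Ccl24 difference between DNBS_Nissle and healthy was 1.05, against 0.96 with it.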

How the results depend on the processing

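Of 1241 recomputed member values, 1205 kept direction and side of the threshold, 35 changed sign and 1 came past the threshold, the Ccl4 difference between DNBS_Nissle and healthy without DNBS_Nissle sample 7 (4.53). Where a value moved, the cause was not tested. Scaling moved the median of all genes between DNBS and healthy from 0.12 to −0.19 with quantile normalization. The number of molecules, and so the precision of a Ct, is unknown.

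Sign changes were mostly of Ccl5, whose differences were small. For Ccl5 in DNBS_CEC against DNBS the difference was 0.020 with the global mean, 0.28 without the 2 samples highest in Ccl4 and Ccl5 (DNBS 3 and DNBS_Nissle 1), and −0.56 to 0.28 with single samples left out. In DNBS_Nissle against DNBS it was −0.028 with assay Ccl5_Mm01302427_m1 alone, −0.56 without the 2 samples with most filled values (healthy 3 and DNBS_Nissle 1), −0.18 without the 2 highest, and −0.56 to 0.60 with single samples left out. Between DNBS_CEC and DNBS_Nissle it was 0.45 without either pair and −0.71 to 0.45 with single samples left out. Against healthy, Ccl5 in DNBS_Nissle was −0.38 without the 2 most filled samples, −0.14 without the 2 highest and −0.14 to 1.02 with single samples left out; in DNBS_CEC the last range was −0.13 to 0.63. In the mean of the DNBS groups it was −0.040 without the 2 most filled samples. Ccl24 in DNBS_CEC against DNBS was 0.043 with quantile normalization. Ccl2 in DNBS_Nissle against DNBS was 0.16 without the 2 highest samples and −0.80 to 0.15 with single samples left out. The leave-one-out ranges were −1.17 to 0.23 for Ccl7 in DNBS_CEC against DNBS, −0.99 to 0.28 for Ccl2 between DNBS_CEC and DNBS_Nissle, −0.18 to 0.10 for Ccl24 in the mean of the DNBS groups, and 2.82 to 4.53 for Ccl4 in DNBS_Nissle against healthy.

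The count of all genes past the threshold between DNBS and healthy was 1, and it was 3 with Gapdh alone, 4 with values of few decimals missing, 5 with only the groups compared, and 0 with the global mean, quantile normalization, a limit of Ct 32, any Ct under 40, or without either pair of samples; single samples left out gave 0 to 7. In DNBS_CEC against healthy it was 0, and 0 to 1 with single samples left out (1 without DNBS_CEC 8). In DNBS_Nissle against healthy it was 10, and 16 with a limit of Ct 32, 20 with only the groups compared, 0 without the 2 most filled samples, and 0 to 14 with single samples left out (0 without healthy 3). In the mean of the DNBS groups it was 9, and 4 with filled values missing, 0 without the 2 most filled samples and 0 to 11 with single samples left out (0 without healthy 3 or 4). In the test over 4 groups it was 0, and 7 with Gapdh alone, 4 with only genes detected in all samples, 7 with values of few decimals missing, 5 with control genes not tested, 2 without the 2 highest samples and 0 to 8 with single samples left out. The alternatives that left out pairs of samples or the control genes were chosen after seeing the data.

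The sample numbers did not pair the samples: same-numbered samples had correlations of their deviations between −0.50 and 0.34, over 0.1 in 4 of 10 pairs. With the replicate number as a block, the counts were 2 between DNBS and healthy and 0 in both DNBS_Nissle against healthy and the mean of the DNBS groups. Under the block, the Ccl2 difference between DNBS_Nissle and DNBS was 0.15 and the Ccl24 difference in the mean of the DNBS groups 0.17, and no member passed the threshold.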
